A study of Mus musculus with 16 samples.

Results

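The subject is a set of 90 genes whose RNA was lower after BMS493 than in controls in the fetal lungs of both mouse strains studied. BMS493 binds every retinoic acid receptor subtype as an inverse agonist. The genes were chosen by their BMS493 and control values, and a gene was taken when its highest value with BMS493 lay below its lowest control value within B6 (C57BL/6J) and also within A/J, among the 14540 genes whose mean over the 16 libraries reached 1 CPM (counts per 1e6 assigned counts). The rule found 98 genes, and 8 of them (Lrat, Cyp26b1, Dhrs3, Rarb, Stra6, Il33, Tnfsf13b and Ccbe1) were left out by name. All 90 that remained are annotated as protein-coding. The RNA came from whole lungs of male fetuses at E14.5 (embryonic day), by the labels and the series' design. There are 4 groups with 4 libraries in each, namely B6 control, B6 with BMS493, A/J control and A/J with BMS493. Dams received BMS493 by mouth at 3.75 µg per g of body weight per day from E9.5 to E14.5, and the control dams received the corn oil vehicle over that time. The labels name no engineered allele in either strain.

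Retinoic acid, made from vitamin A, binds receptors of the RAR family, which sit on DNA as partners of RXR receptors. With retinoic acid bound they recruit coactivators to their target genes, and without it they recruit corepressors. An inverse agonist strengthens the hold of the corepressors. In the developing lung the pathway is known for its part in the start of the lung bud and, later, in the growth of airway smooth muscle, where its blockade before birth has been linked to a stronger response of the airways to constricting agents. The values here are levels of RNA in whole lungs, where fewer cells of a type and less RNA per cell cannot be told apart.

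Between 15207539 and 24146224 read pairs per library were assigned to genes, which was 71.7% to 76.9% of all. No pair of replicate libraries matched within counting error (chi-square per degree of freedom from 3.69 to 33.2), and the 3 pairs that include replicate 3 of the B6 BMS493 group had values of 25.8 to 33.2. That library stands apart. Without it the B6 log2 ratio of 12 of the 90 genes moved by 0.1 or more, and these are given with and without it. The labels do not say whether the lungs of a group came from separate litters, so p-values measure the spread between these samples only. The lung was recognisable in all libraries from Sftpc, a surfactant protein of distal epithelium, at 53.98 to 864.9 CPM, and Tbx4, a transcription factor of lung mesenchyme, at 197.5 to 276.3 CPM.

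The rule used the BMS493 and control values, so these are described without a test. In B6, 476 genes (3.27% of the 14540) were lower with BMS493 without overlap, in A/J 417 genes (2.87%), and in both strains 98 (0.674%). In the opposite direction, 21 genes (0.144%) were higher without overlap in both strains, and no gene was separated downward in one strain and upward in the other. The median log2 ratio of the mean BMS493 level to the mean control level was -0.33 over the 90 genes in B6 (from -1.72 to -0.076) and -0.34 in A/J (from -2.20 to -0.084). Over all 14540 genes these medians were -0.0049 and 0.0028. Most of the separations were small, since 58 of the 90 genes had log2 ratios above -0.5 in both strains. Only 6 genes were at -1 or lower in both, Pou3f1, Hoxc4, Ntsr1, Shisa9, Calb2 and Gabra3. Without the library that stands apart, the B6 ratio of Gabra3 was -0.94 and that of Neto1, lower than -1 in A/J, was -1.03 in place of -0.89. Cyp7b1, also lower than -1 in A/J, was at -1.08 in place of -0.99. The ratio was the lower one in A/J for 48 genes and in B6 for 42. Genes with the lower ratios also had fewer reads. The rule favours this link, since a gene with few reads is separated without overlap mostly when its difference is large. The median CPM was 8.13 for the 24 genes with a mean log2 ratio of -0.5 or lower and 59.7 for the others. CPM are not divided by gene length, so they give the depth behind a gene and are not compared between genes as expression.

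**Figure D1:**
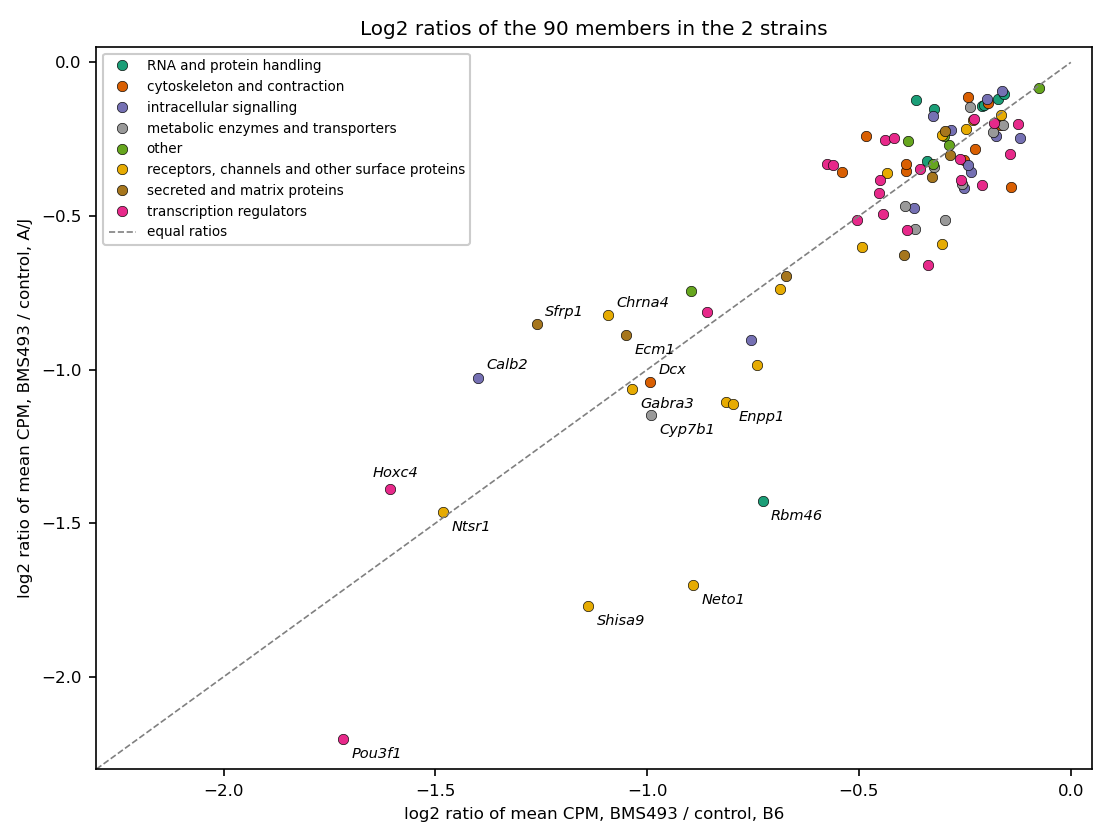
Each point is 1 of the 90 genes, with the log2 ratio of mean CPM with BMS493 to mean control CPM in B6 on the x axis and in A/J on the y axis, coloured by the role of the product; the dashed line marks equal ratios. Most points lie above -0.5 on both axes, and Pou3f1 is lowest on both at -1.72 and -2.20.

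Receptor dimers bind pairs of short half-sites, and the region around the start of the genes was searched for them. RefSeq promoters of the GRCm38.p6 build, from 250 bases before to 50 bases after the start, were found for 69 of the 90 genes. The half-site AGGTCA, on either strand, was in a promoter of 11 of these genes (15.9%), against 1523 of 10539 genes that reach a mean of 1 CPM and 18.1% of all 27025 genes in the table. Pairs in the same direction were searched on both strands with half-sites of the form AGGTCA, of the variant form AGTTCA, and with G as the first letter of either, GGGTCA for the one and GGTTCA for the other. With 1, 2 or 5 bases between them, such pairs were in none of the 69. They are rare over all genes too, so nothing is read from their absence. At 1 base the pair was in 29 of the 10539 genes (0.275%) and at 2 bases in 12 (0.114%). At 5 bases the pair was in 6 of the 10539 genes (0.0569%), and these include Rarb and Tnfsf13b, which the rule also found and which were left out by name. The windows of 30 bases below show the pair in these 2 genes and the single half-site in 4 of the 90 genes, chosen because Hoxc4 and Hoxa5 are the HOX genes among the matches and Mrvi1 and Fbxl22 carry it next to their start. Each is written 5′ to 3′ on the gene's strand, with the half-sites, and for the pairs the bases between them, in capitals. In Hoxc4 the half-site is on the other strand and reads TGACCT.
Rarb, chr14:16575506-16575535, minus strand: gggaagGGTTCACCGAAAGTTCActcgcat
Tnfsf13b, chr8:10006239-10006268, plus strand: gagcagAGTTCAGATGGAGTTCAgtcactc
Hoxc4, chr15:103034237-103034266, plus strand: ggcgctgccctgTGACCTacacagactgca
Hoxa5, chr6:52204538-52204567, minus strand: agtgcacgagtttacctctagAGGTCAtca
Mrvi1, chr7:110946177-110946206, minus strand: attagatgcaaaAGGTCAcctctgcccatg
Fbxl22, chr9:66514580-66514609, minus strand: gaagcaggaggcAGGTCAgaccctttctgg
A match describes the letters of this window and does not show that a receptor binds there.

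Roles were assigned once the genes were known, and their shares over all genes were not counted. Transcription regulators were the most numerous role, with 21 of the 90 genes. Their log2 ratios spanned -1.72 to -0.13 in B6. The A/J span was -2.20 to -0.18. The lowest in both strains was Pou3f1 (ENSMUSG00000090125.4, chromosome 4), a POU-domain factor known from Schwann cells and skin. In B6 it was at 1.13, 0.497, 1.09 and 0.854 CPM in the 4 controls and at 0.448, 0.211, 0.197 and 0.229 CPM with BMS493, where the libraries held 3 to 9 counts. A/J controls were at 5.54, 3.72, 2.98 and 3.21 CPM and A/J lungs with BMS493 at 0.752, 0.704, 0.701 and 1.20 CPM. The A/J libraries with BMS493 overlapped the range of the B6 controls. The mean control level was 3.29 times the BMS493 level in B6 and 4.60 times in A/J. At so few counts the B6 ratio is imprecise, and without replicate 3 of the BMS493 group it was -1.59 on the log2 scale.

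Hoxc4 (ENSMUSG00000075394.5, chromosome 15), a HOX factor of the anterior-posterior axis, was at 2.31, 2.15, 2.82 and 2.17 CPM in B6 controls and at 0.896, 0.169, 1.58 and 0.458 CPM in B6 with BMS493. The A/J levels were 4.73, 4.80, 4.64 and 7.38 CPM in controls and 2.96, 1.89, 1.17 and 2.20 CPM with BMS493. The B6 BMS493 libraries were widely spread, and control replicate 4 was the high library of A/J. The log2 ratio was -1.61 in B6 and -1.39 in A/J. The high B6 library with BMS493 was replicate 3, the one that stands apart, and without it the B6 ratio was -2.22, lower than that of Pou3f1. The neighbouring Hoxc5 met the non-overlap but not the minimum, at a mean of 0.889 CPM.

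Hoxa5 (ENSMUSG00000038253.7, chromosome 6), a mesenchymal HOX factor needed for normal lung and trachea, was at 139, 125, 122 and 132 CPM in B6 controls and 102, 86.1, 106 and 102 CPM with BMS493. Its levels in A/J were 145, 132, 133 and 144 CPM in controls and 97.3, 101, 88.1 and 94.2 CPM with BMS493. Its levels in the same condition overlapped between the strains, and the mean was lower by log2 ratios of -0.39 and -0.55. Hoxa3, from the same cluster, had ratios of -0.45 and -0.42, and -0.32 in B6 without replicate 3.

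Foxf1 (ENSMUSG00000042812.6, chromosome 8), a factor of lung mesenchyme and vessels, was at 199.6, 184, 214 and 191 CPM in B6 controls and 162, 158, 117 and 155 CPM with BMS493. Among A/J libraries, controls were at 213, 196, 214 and 189 CPM and those with BMS493 at 182, 151, 171 and 180.03 CPM. Its low B6 value came from replicate 3, the library that stands apart, and without it the B6 log2 ratio was -0.32 in place of -0.42. Tbx3, a T-box factor of lung mesenchyme, had ratios of -0.36 and -0.35 with small spread in all groups. Gata5 had ratios of -0.44 and -0.49, and -0.34 in B6 without replicate 3. It overlaps the antisense gene Gata5os, and its stranded counts sum to 1.31 times the unstranded count used here. Bcl3, a nuclear partner of NF-κB subunits, had -0.86 and -0.81. Hic1, a zinc finger repressor of mesenchymal progenitors, had -0.50 and -0.51. Lbh, a transcription cofactor first described in limb buds and heart, had -0.34 and -0.66. Also in this role were Twist2, Aff3, the T-box corepressor Ripply3, the endothelial factor Sox7, Zfp827, the Polycomb protein Yaf2, Resf1, the orphan receptor Nr2c1, the repressor Klf3 and the TGF-β effector Smad3.

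**Figure D2:**
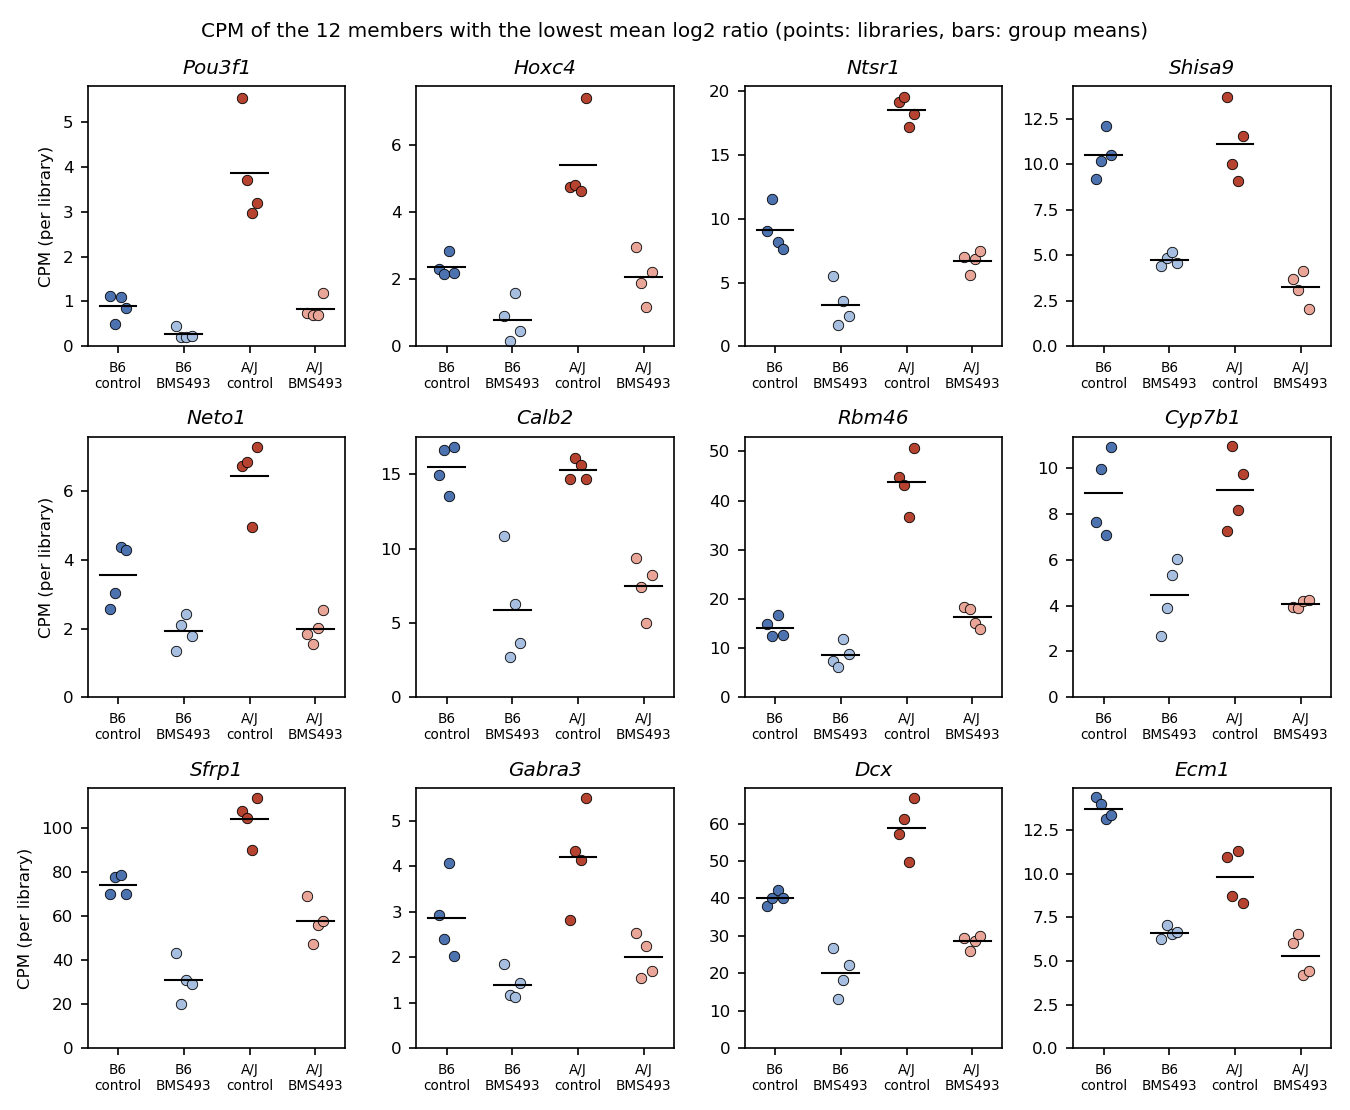
CPM per library (points) and group means (bars) of the 12 genes with the lowest mean log2 ratio, each panel with its own linear y axis from 0. In each strain every BMS493 point is below every control point, which the rule required, and the A/J controls are above the B6 controls without overlap for Pou3f1, Hoxc4, Ntsr1, Neto1, Rbm46, Sfrp1 and Dcx.

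Receptors, channels and other surface proteins, 16 genes, had the lowest median log2 ratio of the 8 roles in both strains, -0.71 in B6 and -0.78 in A/J. Ntsr1 (ENSMUSG00000027568.10, chromosome 2) encodes a G protein-coupled receptor of the peptide neurotensin. It was at 9.08, 11.6, 8.22 and 7.62 CPM in B6 controls and 5.53, 1.64, 3.55 and 2.35 CPM with BMS493. For A/J the values were 19.2, 19.5, 17.2 and 18.2 CPM in controls and 7.004, 5.59, 6.82 and 7.45 CPM with BMS493. The A/J libraries were tight in both conditions, and the mean control level was 2.79 times the BMS493 level in B6 and 2.76 times in A/J.

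Shisa9 (ENSMUSG00000022494.16, chromosome 16), an auxiliary subunit of AMPA glutamate receptors, was at 9.18, 10.2, 12.1 and 10.5 CPM in B6 controls and 4.43, 4.85, 5.19 and 4.58 CPM with BMS493. In A/J it was at 13.7, 9.98, 9.09 and 11.6 CPM in controls and 3.71, 3.08, 4.16 and 2.05 CPM with BMS493. Controls of the strains overlapped, while every A/J library with BMS493 was below every B6 library with BMS493. Neto1 (ENSMUSG00000050321.4, chromosome 18), an auxiliary subunit of kainate and NMDA receptors, was at 2.56, 3.02, 4.36 and 4.27 CPM in B6 controls and 1.34, 2.11, 2.43 and 1.77 CPM with BMS493. A/J controls were at 6.73, 6.83, 4.96 and 7.27 CPM and A/J lungs with BMS493 at 1.83, 1.54, 2.01 and 2.55 CPM. For this gene the strains were apart in controls and overlapped with BMS493. Chrna4, a nicotinic acetylcholine receptor subunit, had log2 ratios of -1.09 and -0.82, and the GABA-A receptor subunit Gabra3 had -1.04 and -1.06.

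Cd38 (ENSMUSG00000029084.6, chromosome 5), a surface enzyme that consumes NAD and is known as a retinoic acid target in myeloid cells, was at 24.6, 23.9, 28.2 and 21.9 CPM in B6 controls and 14.9, 16.4, 12.1 and 13.3 CPM with BMS493. The A/J levels were 23.8, 21.8, 23.5 and 24.1 CPM in controls and 10.1, 11.1, 9.86 and 12.1 CPM with BMS493. The control ranges of the strains overlapped. Enpp1, which makes pyrophosphate outside cells, had log2 ratios of -0.81 and -1.11. Art4, a surface protein of the ADP-ribosyltransferase family, had -0.74 and -0.99. The protease Fap had -0.69 and -0.74, and -0.47 in B6 without replicate 3. The hedgehog co-receptor Gas1 had -0.49 and -0.60. The rest of this role were the angiotensin-cleaving peptidase Enpep, the holder of latent TGF-β Lrrc32, the TNF receptor family member Tnfrsf19, the ephrin receptor Ephb2, the glutamate transporter Slc1a3, and Cd276. The lowest ratio among these was -0.59, for Lrrc32 in A/J.

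Among 7 secreted and matrix proteins, Sfrp1 (ENSMUSG00000031548.8, chromosome 8), which binds WNT ligands, had the lowest B6 ratio. It was at 70.1, 77.6, 78.5 and 70.1 CPM in B6 controls and 43.4, 20.1, 30.97 and 29.3 CPM with BMS493. Its levels in A/J were 107, 104, 89.9 and 113 CPM in controls and 69.2, 47.4, 55.7 and 57.8 CPM with BMS493. Every A/J library with BMS493 was above every B6 library with BMS493, and the control level was 2.40 times the BMS493 level in B6 and 1.80 times in A/J. Ecm1, a matrix glycoprotein, was at 14.4, 13.998, 13.1 and 13.4 CPM in B6 controls and 6.27, 7.04, 6.58 and 6.64 CPM with BMS493. Among A/J libraries, controls were at 10.9, 8.73, 11.3 and 8.30 CPM and those with BMS493 at 6.02, 6.56, 4.20 and 4.45 CPM. The B6 groups were tight and far apart. Plat, the tissue plasminogen activator, had log2 ratios of -0.67 and -0.69, and the small proteoglycan Ogn had -0.39 and -0.63. Scube3, Ccdc80 and the collagen cross-linking enzyme Loxl2 lay between -0.37 and -0.22.

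Of 12 genes of intracellular signalling, Calb2 (ENSMUSG00000003657.10, chromosome 8), the calcium-binding protein calretinin, was lowest. It was at 14.97, 16.6, 13.6 and 16.8 CPM in B6 controls and 10.9, 2.74, 6.25 and 3.66 CPM with BMS493. For A/J the values were 14.7, 16.1, 15.7 and 14.7 CPM in controls and 9.40, 7.39, 4.999 and 8.20 CPM with BMS493. The B6 libraries with BMS493 were widely spread, with replicate 1 nearest to the controls, and the log2 ratios of the means were -1.40 and -1.03. Asb4, a SOCS-box protein of ubiquitin ligases, had ratios of -0.75 and -0.90, and Ripor2, an inhibitor of RhoA, had -0.37 and -0.47. Arrb1 (beta-arrestin 1), which uncouples G protein-coupled receptors, had -0.25 and -0.41. Tirap, an adaptor of Toll-like receptors, had -0.33 in B6, which was -0.20 without replicate 3, and -0.18 in A/J. The remaining 7 were Rgl1, Pdzrn3, the EGF receptor inhibitor Errfi1, Rerg, the cell death protein Bcl2l11, Arf4 and Skap2.

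The 11 genes of cytoskeleton and contraction were led by Dcx (ENSMUSG00000031285.15, chromosome X), the microtubule-binding protein doublecortin of young neurons. It was at 37.9, 40.01, 42.2 and 40.2 CPM in B6 controls and 26.9, 13.2, 18.3 and 22.2 CPM with BMS493. In A/J it was at 57.2, 61.3, 49.7 and 66.8 CPM in controls and 29.6, 26.01, 28.8 and 29.9 CPM with BMS493. The control level was close to 1.99 times the BMS493 level in B6 and 2.06 times in A/J. Mrvi1 (ENSMUSG00000005611.16, chromosome 7), a substrate of cGMP kinase that restrains calcium release in smooth muscle, was at 44.4, 45.3, 49.8 and 44.2 CPM in B6 controls and 36.6, 28.8, 27.6 and 33.4 CPM with BMS493. A/J controls were at 61.7, 62.4, 55.4 and 54.7 CPM and A/J lungs with BMS493 at 47.8, 42.2, 42.1 and 50.9 CPM. The A/J values with BMS493 overlapped those of the B6 controls. Itpr1, the calcium release channel with which the product of Mrvi1 associates, had ratios of -0.14 and -0.40, and Gucy1a1, a subunit of the nitric oxide receptor that makes cGMP, had -0.17 and -0.20. Fblim1, an adaptor of cell-matrix contacts, had -0.39 and -0.35, and the actin-associated Pdlim7 had -0.39 and -0.33. Fbxl22 had -0.48 and -0.24, and -0.60 in B6 without replicate 3. Cfl2, Ttl, Add3 and Epb41l2 complete this role.

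Cyp7b1 (ENSMUSG00000039519.7, chromosome 3), a hydroxylase of oxysterols, was lowest among 9 metabolic enzymes and transporters. It was at 7.64, 9.94, 7.08 and 10.9 CPM in B6 controls and 2.69, 3.88, 5.33 and 6.01 CPM with BMS493. The A/J levels were 7.26, 10.9, 8.17 and 9.73 CPM in controls and 3.95, 3.87, 4.20 and 4.25 CPM with BMS493. Both conditions overlapped between the strains. Papss2, which makes the sulfate donor of proteoglycans, had ratios of -0.37 and -0.54, Gstm7 had -0.39 and -0.47, and Kyat3 had -0.30 and -0.51. Mgll, Gfpt2, Pgm2, Slc35d1 and the fatty acid desaturase Fads1 complete this role, with -0.15 for Pgm2 and -0.090 for Fads1 in B6 without replicate 3, in place of -0.24 and -0.16.

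Of 8 genes of RNA and protein handling, Rbm46 (ENSMUSG00000033882.16, chromosome 3), an RNA-binding protein known from germ cells, was lowest. It was at 14.97, 12.5, 16.7 and 12.6 CPM in B6 controls and 7.47, 6.11, 11.9 and 8.82 CPM with BMS493. Its levels in A/J were 44.8, 43.2, 36.6 and 50.7 CPM in controls and 18.3, 17.96, 15.04 and 13.9 CPM with BMS493. Every A/J library with BMS493 was above every B6 library with BMS493, and the A/J controls were far above all others. The B6 log2 ratio of -0.73 was -0.93 without replicate 3. Nutf2, a nuclear import factor, was at 69.9, 72.02, 66.7 and 67.04 CPM in B6 controls and 65.7, 59.02, 26.8 and 62.6 CPM with BMS493. Its B6 log2 ratio of -0.36 was -0.14 without replicate 3, and -0.12 in A/J. Atxn2, an RNA-binding protein, had -0.32 in B6, which was -0.17 without that library, and -0.15 in A/J. Hspa12a, the RNA helicase Mov10, Reep1, Qtrt2 and Wdr43 complete this role, and the A/J ratio of Wdr43 went from -0.10 to -0.054 without A/J control replicate 4. Without that control the A/J ratio of Arf4 went from -0.095 to -0.051. The remaining 6 of the 90 were Plppr5 at -0.90 and -0.74, Tmem252 at -0.38 in B6 and -0.27 there without replicate 3, 1700017B05Rik, Ccnjl, AW146154 and Maged1, which had the ratio nearest to 0 in both strains.

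The next comparison was between the strains, which the rule did not use. With edgeR's quasi-likelihood test over all 17276 genes tested, 35 of the 90 genes were called between A/J and B6 controls (Benjamini-Hochberg adjusted p under 0.05), 18 higher and 17 lower in A/J. That is 38.9%, while calls were made for 17.9% of the 14540 genes, 7.39% higher and 10.6% lower. Between the BMS493 groups 35 of the 90 were called as well, 16 higher and 19 lower in A/J, while 21.4% of the 14540 genes were called, 8.58% higher and 12.8% lower. Both comparisons called 26 of these genes, all in the same direction, and 46 of the 90 were called in neither. The shares of all genes called in both or in neither were not counted, so nothing is read from these numbers. The median log2 difference of A/J from B6 over the 90 genes was 0.061 in controls and 0.034 with BMS493, so they did not lie to one side. A rule of non-overlap favours genes with a small spread and many reads. Within groups the median SD of log2 CPM was 0.0764 over the 90 genes and 0.0984 over all genes in B6 controls, and 0.0919 and 0.130 in A/J controls. The part of this in the share of calls was not tested.

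Of the 35 genes called in controls, 5 had an absolute log2 difference of 1 or more. The share over all genes was not counted, so nothing is read from that number. For Pou3f1 the A/J minus B6 difference was 2.12 in controls and 1.57 with BMS493. It reached the minimum of 1 CPM through the A/J controls alone, at a mean of 3.86 CPM against 0.892, 0.271 and 0.839 CPM in the other groups, so its strain difference is given as a description. Pou3f1 was not taken out of the counts of genes called in controls, with BMS493 and in both. Rbm46 differed by 1.62 (SE 0.15, adjusted p = 3.86e-08) in controls and by 0.93 (SE 0.16, adjusted p = 0.000202) with BMS493. For Ntsr1 the differences were 1.01 (SE 0.21, adjusted p = 0.00165) and 1.03 (SE 0.24, adjusted p = 0.00435). All 4 libraries of A/J were above all 4 of B6 in both conditions for these genes. Hoxc4 was higher in A/J by 1.18 (SE 0.32, adjusted p = 0.0122) in controls and by 1.46 (SE 0.39, adjusted p = 0.0102) with BMS493, but the control call did not hold when A/J control replicate 4 was left out (adjusted p = 0.0552). The BMS493 call for Hoxc4 was lost in a fit of those 8 libraries alone (adjusted p = 0.0663). Art4 went the other way, at -1.48 (SE 0.18, adjusted p = 7.18e-07) in controls and -1.74 (SE 0.20, adjusted p = 2.44e-07) with BMS493. It was at 6.51, 9.32, 8.02 and 8.14 CPM in B6 controls and 3.15, 2.46, 3.08 and 2.81 CPM in A/J controls, with no overlap.

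Smaller strain differences were found in several roles. The proteoglycan gene Ogn was lower in A/J, at -0.85 (SE 0.10, adjusted p = 1.3e-06) in controls and -1.10 (SE 0.10, adjusted p = 3.57e-08) with BMS493, from 83.5 ± 1.45 CPM in B6 controls to 46.4 ± 3.42 CPM (SD, n = 4 each) in A/J controls. Also lower in A/J controls were the surface proteins Enpep at -0.66 and Lrrc32 at -0.57, the matrix protein Ccdc80 at -0.56, Ripply3 at -0.72 and Sox7 at -0.51. Higher in A/J controls were Kyat3 at 0.73, Asb4 at 0.61, Dcx at 0.55, Slc35d1 at 0.44, Gas1 at 0.35 and Mrvi1 at 0.35. These calls in controls held under every alternative run for them. Mrvi1 was also higher in A/J with BMS493, by 0.52 (SE 0.09, adjusted p = 0.000129). Gucy1a1 was lower in A/J, at -0.27 (SE 0.06, adjusted p = 0.0011) in controls and -0.32 (SE 0.06, adjusted p = 0.000141) with BMS493. Sfrp1 was called with BMS493, at 0.88 (SE 0.18, adjusted p = 0.00258), and not in controls, at 0.48 (SE 0.17, adjusted p = 0.0657). Neto1 was called in controls, at 0.86 (SE 0.21, adjusted p = 0.00413), and not with BMS493, at 0.04 (SE 0.24, adjusted p = 0.936). The control call for Neto1 was lost with counts of the first stranded column, at 0.71 (adjusted p = 0.0657). A call in one condition and not in the other does not show that the values differ. By role, 4 of the transcription regulators were higher and 3 lower in A/J controls, 4 and 4 of the surface proteins, 3 and 3 of intracellular signalling, and 1 and 3 of the secreted and matrix proteins. Pou3f1, which met the minimum level through the A/J controls alone, is among the transcription regulators counted as higher.

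**Figure D3:**
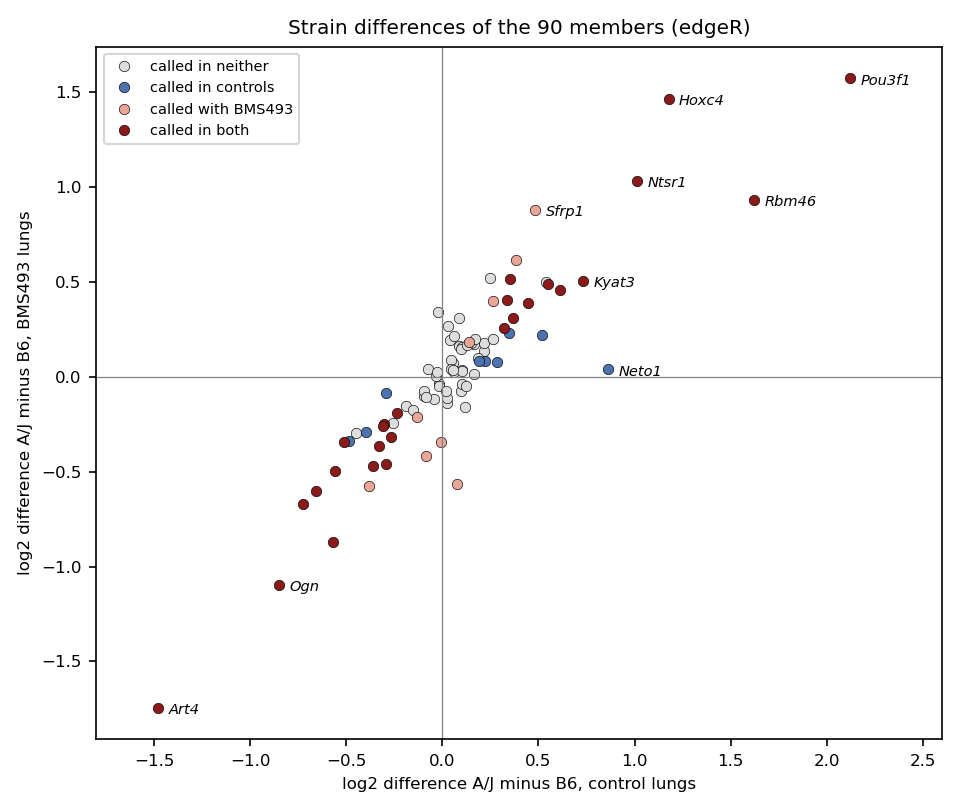
Log2 difference of A/J from B6 (edgeR) for each of the 90 genes in control lungs (x axis) and BMS493 lungs (y axis), coloured by the comparison in which it was called. Pou3f1 (2.12 and 1.57), which met the minimum level through the A/J controls alone, and Art4 (-1.48 and -1.74) lie at opposite ends, and the 26 genes called in both share their sign.

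The size of the BMS493 effect was then compared between the strains, by the difference of the log2 effects, A/J minus B6. It is computed from the values that chose the genes, so it describes them and nothing is read from its counts. No gene of the 90 was called by edgeR, where 1 gene of 17276 was called in all (0.00579%), and DESeq2 called none of the 90. An unadjusted p under 0.05 was found for 6 of the 90, and for 3.68% of all genes tested. These were Itpr1 (-0.28, SE 0.09), Rbm46 (-0.69, SE 0.22), Lbh (-0.34, SE 0.12), Shisa9 (-0.64, SE 0.24), Neto1 (-0.83, SE 0.32) and Cd38 (-0.33, SE 0.15), all with the larger effect in A/J and all with an adjusted p of 0.999. Without the filter on low counts Rbm46 was called, at -0.68 (adjusted p = 0.0466). For Sfrp1, whose ratio was lower in B6, the difference was 0.40 (SE 0.24).

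The rule placed every BMS493 library below the controls, and how far below is described here by library. The median log2 difference from the mean of the strain's controls was -0.27, -0.34, -0.38 and -0.30 in the 4 B6 libraries with BMS493 and -0.30, -0.37, -0.39 and -0.32 in those of A/J. Control libraries lay between -0.028 and 0.026. For the 20 genes with the lowest mean ratio the medians were -0.81, -1.12, -1.005 and -0.89 in B6 and -0.81, -1.16, -1.13 and -1.01 in A/J. Replicate 1 was the nearest to the controls in both strains by this measure. Replicate 2 held the lowest value of its group for 31 of the 90 genes in B6 and 35 in A/J, and replicate 3 for 37 and 36. Summed over the 90 genes, BMS493 libraries had 5644 to 6112 CPM and control libraries 7020 to 7221. In replicates 1 and 2, one set of libraries by their numbers, the median log2 ratio was -0.33 in B6 and -0.37 in A/J. In replicates 3 and 4 it was -0.34 in both. Without replicate 3 of the B6 BMS493 group the B6 median was -0.32.

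**Figure D4:**
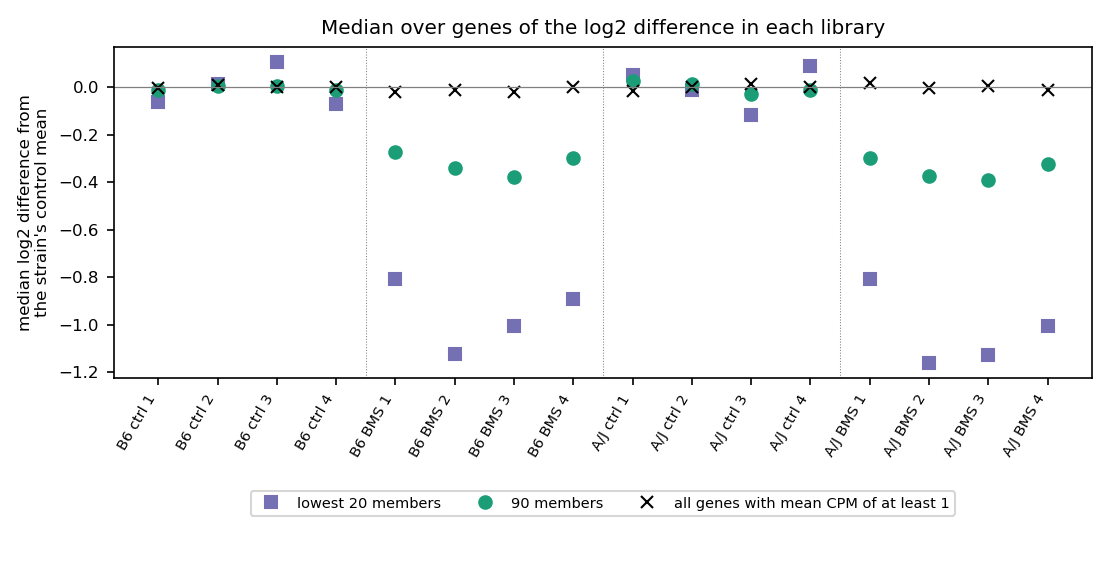
Median over genes of the log2 difference from the mean of the strain's controls (y axis) in each library (x axis), for the 90 genes (circles), their lowest 20 (squares) and all genes with a mean CPM of at least 1 (crosses). The crosses stay near 0, while the 8 BMS493 libraries lie at -0.27 to -0.39 for the 90 genes, which the rule required to be below the controls.

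Around these genes, a list of 40 genes of the retinoid pathway and its known targets was examined, of which 34 were tested. In B6, edgeR called 7 lower with BMS493 and 0 higher, with a median log2 fold change of -0.20 over the 34, where 0.347% of all genes tested were called lower. In A/J it called 7 lower and 0 higher, with a median of -0.12, where 0.423% were called lower. Of the 7 in B6, 5 are genes left out by name (Rarb, Cyp26b1, Dhrs3, Lrat and Stra6), and Hoxa5 and Foxf1 are among the 90. In A/J, Rarb, Cyp26b1, Dhrs3 and Lrat were left out by name and 2 genes, Hoxa5 being one, are among the 90. The only other gene called was Nrip1, a corepressor of nuclear receptors, which fell in A/J by 0.37 (SE 0.08, adjusted p = 0.033) and was at -0.15 (adjusted p = 0.625) in B6. The B6 count was 3 in a fit of the 8 B6 libraries alone and 3 without B6 control replicate 1, and 4 without B6 control replicate 3 or 4. Over the 90 genes edgeR called 26 in B6 and 39 in A/J, all lower, and 43 in neither strain. That contrast chose the genes, and all 7 retinoid genes called in B6 and 6 of the 7 in A/J are among those the rule found, so nothing is read from the counts of the list or of the 90 genes.

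No gene of the 90 was on any of the lists of cell type markers. Several of the 90 are known from neurons or smooth muscle, and the markers of such cells are given beside them. Of 10 neuron markers 7 were tested, and 0 were called with BMS493 in either strain. Their summed level was 15.04 to 20.35 CPM in B6 controls and 11.6 to 12.8 CPM in B6 with BMS493, without overlap. In A/J it was 16.5 to 20.8 CPM and 14.8 to 18.9 CPM, with overlap. In B6 the log2 fold changes ran from -1.54 for Tubb3 (edgeR adjusted p = 0.0772) to 0.07 for Elavl4 (adjusted p = 0.959). Dcx, Shisa9, Neto1 and Calb2 of the 90 are known from neurons. Of 12 smooth muscle markers 11 were tested and 1 was called, Actg2, lower in B6. Their sum was 1356 to 1447 CPM in B6 controls and 1112 to 1319 with BMS493, and 1146 to 1394 and 1085 to 1247 in A/J. The sum over 8 markers of mesothelium, the lining of the lung, was 162.3 to 169.8 CPM in A/J controls and 132.5 to 150.3 with BMS493, and 160.5 to 176.7 and 151 to 172.2 in B6. Sums over 3 other lists did not overlap in B6 and overlapped in A/J, with no gene called in either strain. Lymphatic endothelium was at 229.5 to 255.6 CPM in B6 controls and 165.9 to 219.1 with BMS493, skeletal muscle at 59.9 to 66.6 and 36.2 to 54.97, and neuroendocrine epithelium at 13.3 to 17.2 and 10.98 to 13. The sum over 12 interferon-stimulated genes, of which edgeR called 2 lower in A/J, Gbp2 and Gbp2b, was 62.8 to 68.3 CPM in A/J controls and 44.6 to 52.0 with BMS493. In B6 it was 45.1 to 47.5 CPM in controls and 43.96 to 69.35 with BMS493, with overlap, no gene called and 3 of the 11 tested below 0. Of 7 mast cell markers 4 were tested, and 3 were called higher with BMS493 in A/J, Cpa3 by 1.55, Cma1 by 2.03 and Tpsb2 by 1.49 on the log2 scale, and 0 in B6. The other one tested, Kit, went the other way, at -0.31 in A/J (edgeR adjusted p = 0.541) and -0.12 in B6 (adjusted p = 0.792). The share of all genes called higher was not counted. The summed level of that list overlapped in both strains. The sum over markers of distal epithelium was 830.9 to 1054 CPM in B6 controls and 841.8 to 1678 with BMS493, with overlap and no gene called. The heart gene Nppa and the T cell gene Cd3e were at 0 in all libraries. The part of these cell types in the values of the 90 genes was not tested.

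**Figure D5:**
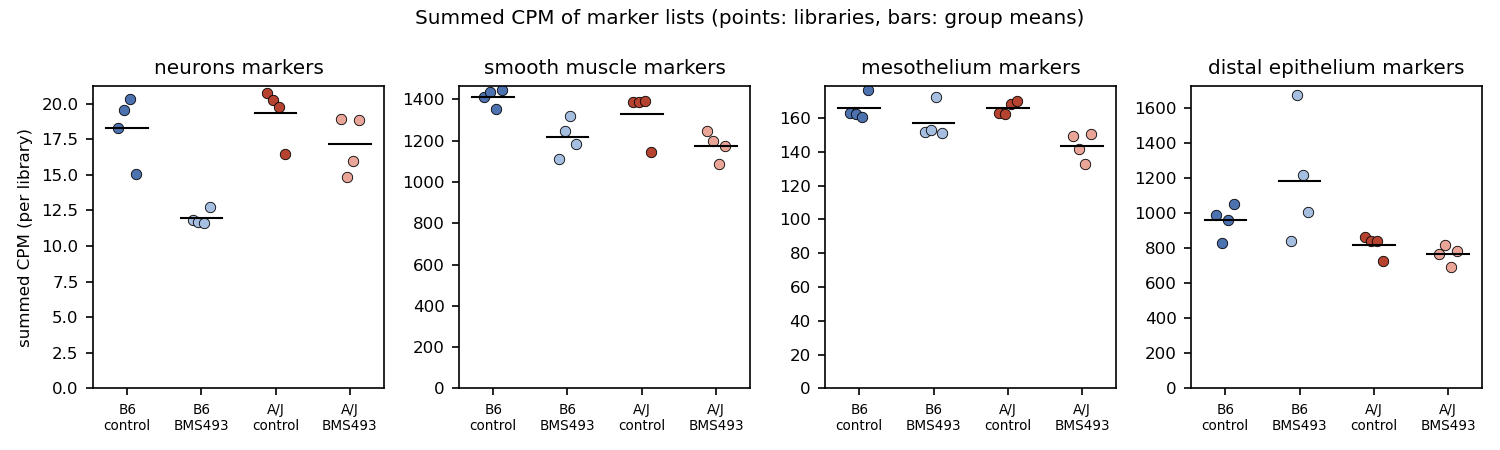
Summed CPM of 4 lists of marker genes in each library (points) with group means (bars), on linear y axes from 0. The summed neuron markers span 11.6 to 12.8 in B6 with BMS493 and 15.04 to 20.35 in B6 controls, while the A/J groups overlap.

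Some of the 90 genes lie close together in the genome. In the order of protein-coding genes in GENCODE M21, Hoxa3 and Hoxa5 on chromosome 6 have 2 genes between them, Skap2 and Hoxa3 have 3, Gata5 and Ntsr1 on chromosome 2 have 1, Gucy1a1 and Rbm46 on chromosome 3 have 2, and Pgm2 and Klf3 on chromosome 5 have 1. Chromosome 6 held 11 of the 90 genes, 12.2%, and 5.04% of all genes with a mean CPM of at least 1. Counts could be shared with other genes for a few. The sum of the stranded counts was 4.78 times the unstranded count for Twist2 and 1.78 times for Fbxl22, since the unstranded count leaves out reads that overlap several genes. For 72 of the 90 it was within 5%. Of the 50-base windows of their transcripts, 45.0% in Loxl2 and 39.1% in Nutf2 also occur in another gene, so their values are uncertain, and 54 genes shared none.

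The rule has a sharp edge. Just inside it, Papss2 had a lowest B6 control of 7.040 CPM and a highest B6 BMS493 value of 7.036 CPM, Ephb2 had 68.46 and 68.37, and Rerg had 18.19 and 18.15. Just outside it, Cul1 had a lowest A/J control of 195.0 CPM and a highest A/J BMS493 value of 195.1 CPM, Kctd1 had 14.36 and 14.37 in B6, and Gja1 had 129.09 and 129.22 in B6. At the minimum of 1 CPM, Pou3f1 at a mean of 1.47, Chrna4 at 1.72 and Bcl3 at 2.10 were just inside. Hoxc5 at 0.889, 4930447C04Rik at 0.841 and Zfp36l1-ps at 0.657 were just outside. Rerg is separated by little in A/J as well, and its B6 ratio of -0.20 was -0.13 without B6 control replicate 2.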

How the data were processed

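The authors deposited 1 table of raw read counts per gene for each of the 16 libraries, made after poly(A) selection per the labels' protocols. Each has 57180 genes and 3 columns, 1 regardless of strand and 1 per strand, in the layout of STAR gene counts. The submitters' processing notes name FastQC, cutadapt, STAR and the GRCm39 build, and the annotation release is not given in the sources used here. The column regardless of strand was used, since the stranded columns were near equal. The 4 summary lines per file, which held 23.1% to 28.3% of the fragments, were left out.

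CPM for the rule and for all levels are counts divided by the sum of gene counts and multiplied by 1e6. Symbols came from GENCODE M21, which matched 51884 identifiers with 98.9% of the counts. Tests used R 4.3.3 and edgeR 4.0.16. Its function filterByExpr took out 39904 genes with low counts, and 17276 were tested. After TMM scaling they were fitted by edgeR's robust quasi-likelihood model with 1 coefficient per group and 12 residual degrees of freedom. Two-sided p-values were adjusted over all 17276 genes by the Benjamini-Hochberg method, with 0.05 as the threshold for a call, and log2 differences have the standard error (SE) of that fit. The script was tested on simulated data. Every adjusted p comes from this edgeR fit unless DESeq2 1.42.0 is named. Assigned counts ranged from 15229531 to 24146224 in B6 controls, from 15207539 to 23719922 in B6 with BMS493, from 17468843 to 23139892 in A/J controls and from 20001844 to 22721678 in A/J with BMS493. Their number sets the counting precision, and without molecular identifiers a read is not an independent molecule.

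The members and lists were chosen with earlier results of these data known. Roles were assigned by hand from textbook knowledge once the members were known. 1 member is counted but not reported here by name. Members given with values of their own are the 20 with the lowest mean log2 ratio, those on a list, those that differ between control strains by at least 1 on the log2 scale, those nearest to the thresholds, and up to 4 with the lowest mean ratio per role. Other members with values were picked for their known function or strain difference after these were seen. Tables were assembled in pandas 2.3.3 under Python 3.11.15. Alternatives were other scalings, tests, filters, columns and covariates, only the libraries compared, and leaving out each library.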

Additional observations from a re-analysis of the deposited data

Results flagged for a closer look

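In the 42 genes named by rule, each group of 4 libraries was searched for a library far from the others. Its gap to the nearest of the others was divided by the range of the group. That ratio had to exceed Dixon's critical value at 95% for that size, which chance alone does in about 1 group in 20. Such a library was found in 9 of 168 groups. Pou3f1 was at 0.448 CPM in B6 BMS493 replicate 1, where the others had 0.197 to 0.229, and at 1.20 CPM in A/J BMS493 replicate 4, where the others had 0.701 to 0.752. Hoxc4 was at 7.385 CPM in A/J control replicate 4, against 4.64 to 4.80 in the others. In that same library Ripor2 was at 12.2 CPM, against 9.55 to 9.96, and Hspa12a at 18.1 CPM, against 14.1 to 14.4. Foxf1 was at 116.8 CPM in B6 BMS493 replicate 3, against 154.7 to 161.6. AW146154 was at 5.71 CPM in B6 control replicate 4, against 5.18 to 5.20, and at 4.85 CPM in B6 BMS493 replicate 2, against 4.18 to 4.21. Rerg was at 22.3 CPM in B6 control replicate 2, against 18.2 to 18.8.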

How the results depend on the processing

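The set of 90 genes depends on the details of its rule. With TMM library sizes 86 genes passed, 79 of them among the 90. The first and second stranded columns gave 86 and 69 genes, with 59 and 47 of the 90. A minimum of 0.5 or 2 CPM gave 93 and 88. When the lowest control had to be at least 1.1 times the highest BMS493 value, 23 remained. Leaving out any 1 library loosens the rule and gave 95 to 134 genes, which held all 90. The count called between control strains was 31 to 38 without 1 library, and with BMS493 it was 29 to 40. With only the libraries compared these counts were 39 and 24. The difference between the BMS493 effects gave 0 calls without any 1 library and 1 without the filter on low counts, and the cause was not tested. The count of retinoid genes called in B6 was 3 with only the libraries compared, where fewer samples are fitted, and 3 to 9 without 1 library. In A/J it was 5 to 8 without 1 library. Of 70 strain differences called in the 90 genes, 43 kept the call under every alternative run, and none changed sign. The samples were treated as unpaired by replicate number. The correlation of deviations for the 24 pairs with the same number had a median of -0.0089 and was over 0.1 in 3. For the 72 pairs with different numbers the median was 0.0047, and 1 was over 0.1. This check cannot show that the numbers pair no samples. With the replicate block, 37 of the 90 genes were called between control strains, 35 with BMS493 and 0 for the difference of effects, and 7 retinoid genes in each strain. Few counts limit Pou3f1 and Hoxc4, with 3 and 4 counts in their lowest library.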
